A study of Mus musculus with 9 samples.

Results

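The MHC class I presentation genes described here are the 10 genes H2-K1, H2-D1, B2m, Tap1, Tap2, Tapbp, Nlrc5, Psmb8, Psmb9 and Psmb10, found by gene name among the 54532 genes of the expression table of BV2 cells. Each name matched 1 row, and 10 of 10 passed the filter on low values, 0.2 FPKM averaged over the libraries, that 16123 genes passed. FPKM is the number of reads on a gene scaled to the length of the gene and to a divisor of the library. Levels can so be set side by side between genes as well as between libraries. The divisors were near the total reads of the libraries but not equal to them.

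BV2 is an immortalized line of mouse microglia, the resident macrophages of the brain, and every library came from this 1 line. The 9 libraries formed 3 groups of 3. Control cells were kept in complete medium, OGD cells were put under oxygen-glucose deprivation, and OGD + A-485 cells were deprived and given A-485, which blocks the acetyltransferases P300 and CBP. The paper describes deprivation as low-glucose medium with a lower share of serum than the controls received, in a hypoxic chamber, so the parts of oxygen, glucose and serum cannot be told apart. The experiments that led up to the sequencing used 24 h of deprivation and 50 μM A-485, and the labels repeat neither for these libraries. No A-485 group without deprivation was analysed here, and the labels do not say whether libraries of a group came from separate cultures, so p-values measure the spread between libraries, which may be technical.

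MHC class I molecules show peptides from inside the cell to CD8 T cells. Proteins are cut by the proteasome, and in immune cells its catalytic subunits can be replaced by the immunoproteasome subunits Psmb8, Psmb9 and Psmb10, which favour peptides that class I molecules can bind. The peptides are pumped into the endoplasmic reticulum by the transporter made of Tap1 and Tap2, loaded with the help of Tapbp (tapasin) onto a heavy chain such as H2-K1 or H2-D1 that is paired with the light chain B2m, and carried to the surface. Nlrc5 is a transactivator that is recruited to class I promoters through DNA-binding partners and raises many of these genes together. Interferons are the best known inducers of the pathway, and resting microglia in the brain carry little of it.

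Under OGD the 10 genes did not move as a group. H2-K1 rose, Tap2 and Psmb10 fell, and the other members did not pass the thresholds. With A-485 on top of OGD, Tapbp, Psmb8, Psmb9, Psmb10 and Tap2 rose by between 0.81 and 1.24 on the log2 scale, while both heavy chains, B2m, Tap1 and Nlrc5 did not pass. A gene was called changed at p under 0.01 and a log2 fold change above 0.5 in size in a limma fit across all genes, with fold changes taken on log2(FPKM + 0.1), a scale that understates the change of low genes.

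In OGD against control, 1 of 10 members was called higher, where 11.2% of all genes tested were, and 2 of 10 were called lower, where 9.81% of all genes were. In OGD + A-485 against OGD, 5 of 10 were called higher against 12.2% of all genes, and 0 of 10 were called lower against 13.4%. In OGD + A-485 against control, 5 of 10 were called higher against 17.0% of all genes, and 0 of 10 lower against 16.6%. For both counts of 0 in limma, limma-voom on reads recovered from the FPKM also called 0 members lower, and at an unadjusted p under 0.05 the members that were lower numbered 1 against OGD (Nlrc5) and 2 against control (Nlrc5 and Psmb10). The groups did not overlap for 6 of 10 members in OGD against control, for 7 in OGD + A-485 against OGD and for 9 in OGD + A-485 against control, where 55.4%, 56.8% and 63.8% of all genes did not overlap. The median log2 fold change of the members was 0.00, 0.48 and 0.50 in the 3 comparisons, beside 0.01, 0.01 and 0.02 over all genes tested. The comparisons share libraries with each other, and no test of the members as a set was made.

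**Figure D1:**
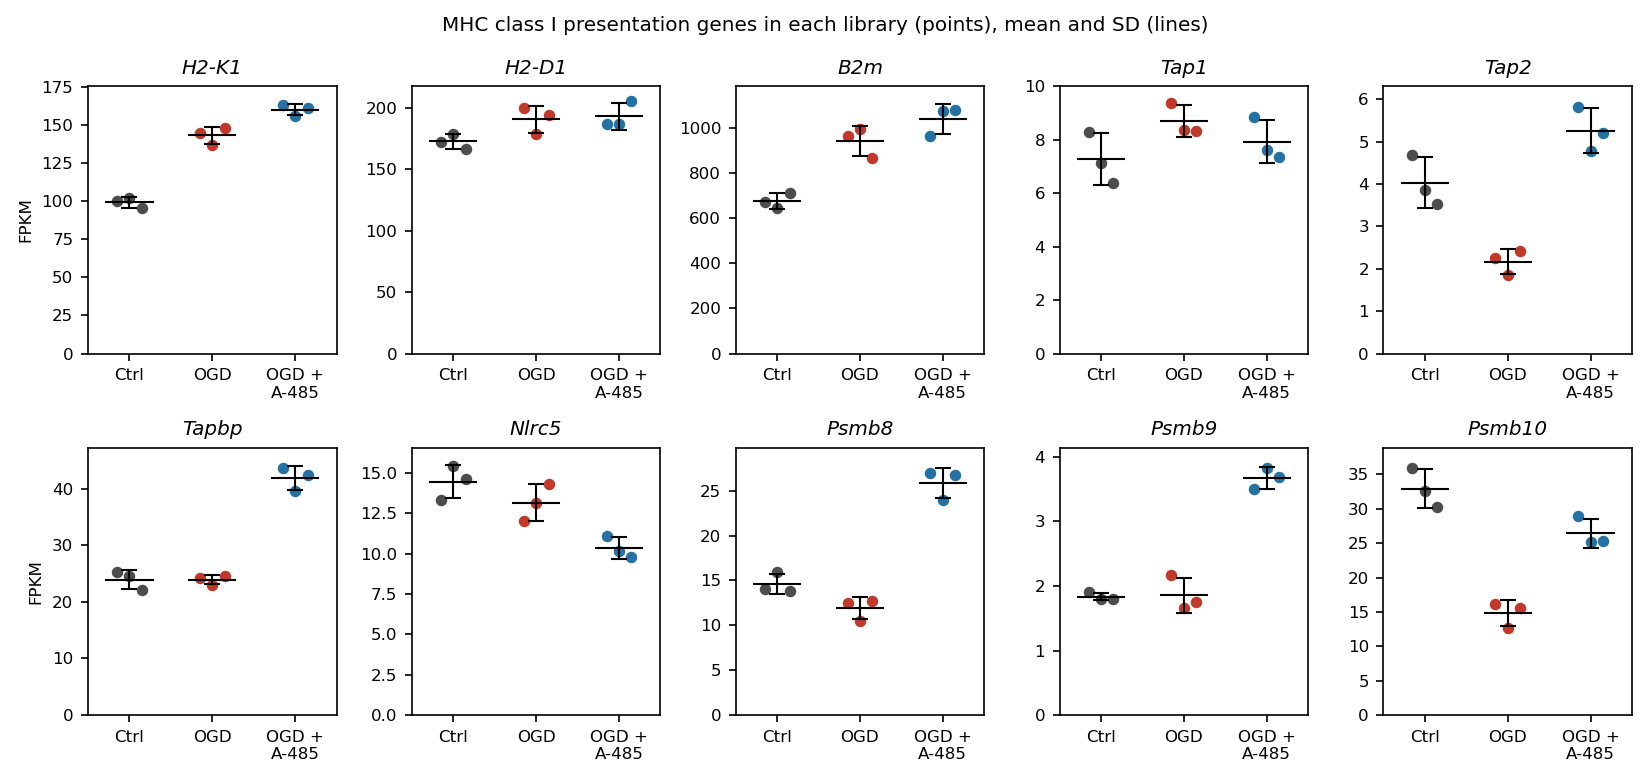
FPKM of the 10 MHC class I presentation genes, 1 panel per gene with its own axis from 0, by group; points are the 3 libraries of a group, the long line is their mean and the short lines mark 1 SD. Tap2 and Psmb10 sat lowest under OGD, while Tapbp, Psmb8 and Psmb9 were highest in the OGD + A-485 libraries, with Psmb8 at 23.9 to 26.9 FPKM there and at 10.5 to 15.9 in the other 6 libraries.

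The libraries held 12681228 to 15594706 reads on genes in control, 12593250 to 14000875 under OGD and 15126135 to 16091038 with A-485, so that each OGD + A-485 library was deeper than each OGD library, and the part of depth in the results was not tested. Member genes had between 79 reads (Psmb9 in 1 OGD library) and 14606 reads (B2m in 1 OGD + A-485 library). Replicate libraries differed by more than counting noise in each group. Of 15 microglial and myeloid markers, 13 had a mean of at least 1 FPKM, while P2ry12 and Sall1 were below 0.2, and in each list of 4 markers for astrocytes, neurons, oligodendrocytes, T and B cells, or fibroblasts and endothelium, 0 reached 1 FPKM. The summed level of the microglial and myeloid markers lay between 605 and 628 FPKM in control, between 779.8 and 798 under OGD and between 1392 and 1433 with A-485. Of the 13 markers tested, 5 were called higher in OGD than in control and 10 were called higher in OGD + A-485 than in OGD. These markers moved with the groups, and their part in the results for the class I genes was not tested.

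The heavy chain gene H2-K1 (ENSMUSG00000061232, GRCm38 chr17:33996017-34000333, minus strand) encodes the classical class I molecule K. Its level was 100.2, 102 and 95.3 FPKM in the control libraries, 144, 137 and 148 FPKM under OGD, and 163, 156 and 161 FPKM with A-485. The 3 groups did not overlap and lay in the order control, OGD, OGD + A-485. H2-K1 was 1.44-fold higher under OGD than in control (log2 fold change 0.53, SE 0.04, limma adjusted p = 1.78e-05). The difference lay just past the fold threshold and its call was lost when libraries were scaled to total reads or quantile normalized. With A-485 it was 1.12-fold higher than under OGD alone (log2 fold change 0.16, SE 0.04, limma adjusted p = 0.0126), which is under the fold threshold, and 1.61-fold higher than in control (limma adjusted p = 1.47e-06). In bulk RNA a change in the number of cells that express a gene and a change in its RNA per cell cannot be told apart, here and in the results that follow.

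B2m (ENSMUSG00000060802, chr2:122147686-122153083, plus strand), the light chain shared by class I molecules, was the most abundant member. It stood at 669, 643 and 711 FPKM in control, 961, 993 and 865 FPKM under OGD, and 964, 1075 and 1079 FPKM with A-485. The 6 deprived libraries were all above the controls, and the 2 deprived groups overlapped. Its log2 fold change under OGD was 0.48 (SE 0.08, limma adjusted p = 8.70e-04), just short of the fold threshold, and passed it when the third control or the third OGD library was left out, with 0.54 as the highest value over the libraries left out in turn. Against control, B2m was called higher with A-485 (log2 fold change 0.62, limma adjusted p = 1.07e-04), a call that quantile normalization ended. With A-485 against OGD the difference was 0.15 (95% interval -0.03 to 0.32, limma adjusted p = 0.146).

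The other classical heavy chain, H2-D1 (ENSMUSG00000073411, chr17:35262730-35267499, plus strand), had the higher level of the 2 heavy chains in each group. Its values were 172, 179 and 167 FPKM in control, 199, 179 and 194 FPKM under OGD, and 186, 187 and 205 FPKM with A-485. The OGD libraries overlapped both other groups. H2-D1 was called in 0 of the 3 comparisons by limma and by limma-voom, with log2 fold changes of 0.14 for OGD against control (95% interval 0.01 to 0.27, limma adjusted p = 0.0757), 0.02 for A-485 against OGD (-0.11 to 0.15, limma adjusted p = 0.832) and 0.16 for A-485 against control (0.03 to 0.29, limma adjusted p = 0.0413), of which 2 comparisons had an unadjusted p under 0.05 and each of which turned negative under quantile normalization. Of the 50-base windows of the transcripts, 9.63% for H2-K1 and 12.8% for H2-D1 also occur in transcripts of other genes, with the largest share in H2-Q10 and H2-Q1, so part of these reads could have been assigned to a relative.

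Taking the ratio of 2 genes within a library removes the scaling of that library. H2-K1 stood at 14.7% ± 1.23 of the FPKM of B2m in control, 15.3% ± 1.68 under OGD and 15.4% ± 1.29 with A-485 (SD, n = 3 each), and the libraries of the 3 groups overlapped. Over the 3 comparisons the two-sided exact permutation p for this ratio was 0.7, 1 and 0.6. H2-D1 stood at 25.7% ± 2.20, 20.4% ± 2.24 and 18.6% ± 1.04 of B2m, and both deprived groups lay wholly below control, by 0.34 and 0.46 on the log2 scale. Each of these had an exact p of 0.1, the smallest that 3 libraries against 3 allow, so the ratios can be read only against the spread of the libraries.

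The promoter windows of H2-K1, B2m and H2-D1 are shown because the finished molecule pairs a heavy chain, such as H2-K1 or H2-D1, with B2m. Under OGD the log2 fold change was 0.53 for H2-K1, and 0.48 for B2m and 0.14 for H2-D1, which were not called. The ratio of H2-K1 to B2m overlapped between the groups. RefSeq (GRCm38.p6) gave windows of 250 bases before to 50 after the start for 8 of the 10 members, not for Tap2 and Nlrc5. The stretches printed lie upstream of the RefSeq starts, 5′ to 3′ on the strand of the gene, with capitals at matches to the motifs searched on both strands, which were GGGNNTTCC for the NF-kB site, TGACG for the cAMP response element half-site, CCAAT for the box bound by NF-Y, read as ATTGG from the opposite strand, and GAAANNGAA for the core of the interferon-stimulated response element. H2-K1 is given at chr17:34000358-34000507, B2m at chr2:122147527-122147676 and the stretch around the H2-D1 match, which lies inside the H2-D1 model of the expression table, at chr17:35262913-35262942:
H2-K1: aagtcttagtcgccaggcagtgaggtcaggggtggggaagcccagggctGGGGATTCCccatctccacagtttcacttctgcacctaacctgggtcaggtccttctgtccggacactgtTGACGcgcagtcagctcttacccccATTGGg
B2m: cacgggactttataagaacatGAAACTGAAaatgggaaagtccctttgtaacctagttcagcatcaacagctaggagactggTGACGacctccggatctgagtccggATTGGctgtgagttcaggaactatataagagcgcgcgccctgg
H2-D1: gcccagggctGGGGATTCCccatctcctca

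GGGNNTTCC was found in the windows of H2-K1 and H2-D1, 2 of 8 members, and in 5.82% of 32851 promoters of the same length. The H2-K1 and H2-D1 windows share an identical run of 47 bases around this match. GAAANNGAA was found in B2m, 1 of 8, and in 8.56% of all promoters, TTCNNNGAA (gamma-activated site) in Psmb8, 1 of 8, and in 8.30% of all, TGACG in 5 of 8 and 20.8% of all, and CCAAT in 6 of 8 and 37.4% of all. The members were counted by gene, with a match in any window of the gene, while the percentages are shares of promoter windows, so the measures differ. The TGACG matches of Tap1 and Psmb9 are 1 and the same copy. A match describes the letters of the window and is not a measured binding site. Only these letters were searched, so a response element spelled otherwise was not counted. Such an element may lie in the stretches printed in lower case, also in that of H2-K1.

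Tap1 (ENSMUSG00000037321, chr17:34187553-34197225, plus strand) and Tap2 (ENSMUSG00000024339, chr17:34203527-34216321, plus strand) encode the 2 subunits of the peptide transporter. Tap1 was at 8.30, 7.14 and 6.37 FPKM in control, 9.38, 8.37 and 8.33 FPKM under OGD, and 8.84, 7.61 and 7.36 FPKM with A-485. The OGD libraries were above each control library by a small margin, and the OGD + A-485 libraries overlapped both other groups. Tap1 was called in 0 comparisons by limma and by limma-voom, with log2 fold changes of 0.26 under OGD (limma adjusted p = 0.0773, unadjusted p under 0.05), -0.13 for A-485 against OGD (limma adjusted p = 0.340) and 0.13 for A-485 against control (limma adjusted p = 0.343).

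Tap2 was at 4.69, 3.86 and 3.53 FPKM in control, 2.24, 1.85 and 2.41 FPKM under OGD, and 5.81, 4.77 and 5.19 FPKM with A-485, from 91 to 321 reads per library. The groups did not overlap, with OGD lowest and OGD + A-485 highest. Tap2 fell by 0.86 on the log2 scale under OGD (SE 0.14, limma adjusted p = 8.09e-04) and rose 2.37-fold with A-485 against OGD (log2 fold change 1.24, SE 0.14, limma adjusted p = 7.44e-05). Against control it was 1.30-fold higher with A-485, which was not called (limma adjusted p = 0.0383). Whether the 2 transporter subunits differ in their response was not tested.

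Tapbp (ENSMUSG00000024308, chr17:33915899-33929288, plus strand) encodes tapasin, which bridges the transporter to the empty class I molecule. It was at 25.2, 24.6 and 22.1 FPKM in control, 24.2, 22.98 and 24.6 FPKM under OGD, and 43.6, 39.7 and 42.4 FPKM with A-485. Control and OGD overlapped, and the OGD + A-485 libraries lay above the other 6. The log2 fold change under OGD was 0.00 (95% interval -0.13 to 0.14, limma adjusted p = 0.990), and Tapbp rose 1.75-fold with A-485 against OGD (log2 fold change 0.81, SE 0.06, limma adjusted p = 7.65e-06) and to the same extent against control.

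Psmb8 (ENSMUSG00000024338, chr17:34197721-34201454, plus strand) encodes the immunoproteasome subunit β5i, which takes the place of Psmb5. It was at 14.1, 15.9 and 13.9 FPKM in control, 12.5, 10.5 and 12.7 FPKM under OGD, and 26.9, 23.9 and 26.7 FPKM with A-485. Each OGD library was below each control library, and the OGD + A-485 libraries were above all others. The difference under OGD was -0.30 on the log2 scale (SE 0.09, limma adjusted p = 0.0216) and was not called. Psmb8 rose 2.17-fold with A-485 against OGD (log2 fold change 1.12, SE 0.09, limma adjusted p = 1.05e-05) and 1.76-fold against control (limma adjusted p = 4.69e-05).

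Psmb9 (ENSMUSG00000096727, chr17:34181988-34187764, minus strand) encodes β1i, the counterpart of Psmb6, and was the lowest member in each group. It was at 1.90, 1.80 and 1.81 FPKM in control, 2.17, 1.66 and 1.75 FPKM under OGD, and 3.50, 3.82 and 3.70 FPKM with A-485, from 79 to 221 reads per library. Control and OGD overlapped and the OGD + A-485 libraries stood apart. Psmb9 rose 1.94-fold with A-485 against OGD (log2 fold change 0.95, SE 0.11, limma adjusted p = 1.05e-04), and its log2 fold change under OGD was 0.01 (95% interval -0.24 to 0.26, limma adjusted p = 0.971).

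Psmb10 (ENSMUSG00000031897, chr8:105935735-105938444, minus strand) encodes β2i, the counterpart of Psmb7. It was at 35.9, 32.6 and 30.3 FPKM in control, 16.2, 12.7 and 15.6 FPKM under OGD, and 28.9, 25.2 and 25.3 FPKM with A-485. The groups did not overlap, with OGD lowest and control highest. Psmb10 fell by 1.15 on the log2 scale under OGD (SE 0.10, limma adjusted p = 3.14e-05) and rose 1.79-fold with A-485 against OGD (log2 fold change 0.84, SE 0.10, limma adjusted p = 1.54e-04). With A-485 it remained 0.31 below control on the log2 scale, in the direction of a fall that was not called (95% interval -0.55 to -0.08, limma adjusted p = 0.0273).

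The constitutive subunits that the immunoproteasome replaces moved in different ways from each other. Psmb5 was at 145, 138 and 125 FPKM in control, 111, 95.7 and 116 FPKM under OGD, and 202, 182 and 201 FPKM with A-485, and rose with A-485 against OGD (log2 fold change 0.86, limma adjusted p = 4.26e-05). Psmb6 had mean levels of 120.3, 150.3 and 198 FPKM and passed only against control (log2 fold change 0.72 with A-485, limma adjusted p = 3.86e-06). Psmb7 had mean levels of 42.4, 38.7 and 29.9 FPKM and fell with A-485 against control by 0.50 on the log2 scale, just past the threshold (limma adjusted p = 2.77e-05), and was no longer called without the first control library (-0.49) or the third OGD + A-485 library (-0.45). A pseudocount of 1 also ended this call (-0.49). Around Psmb5 the 50 nearest expressed genes also rose, by a median of 0.66 with A-485 against OGD, and with this median removed Psmb5 was at 0.20 and no longer called. What moved this stretch of the genome was not tested.

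Within each library, Psmb8 stood at 10.8% ± 0.959 of the FPKM of Psmb5 in control, 11.1% ± 0.155 under OGD and 13.3% ± 0.102 with A-485 (SD, n = 3 each). Control and OGD overlapped (two-sided exact permutation p = 0.9), and the OGD + A-485 libraries lay above both by 0.26 and 0.30 on the log2 scale, much less than the change of Psmb8 itself. Psmb9 stood at 1.53% ± 0.0557, 1.23% ± 0.131 and 1.86% ± 0.111 of Psmb6, and its 3 groups did not overlap. Psmb10 stood at 77.7% ± 5.91 of Psmb7 in control, 38.4% ± 5.43 under OGD and 88.5% ± 3.62 with A-485. The 3 groups did not overlap here either, and the log2 ratio was 1.02 lower under OGD than in control and 1.21 higher with A-485 than under OGD. Each difference without overlap had an exact p of 0.1, the smallest the design allows.

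**Figure D2:**
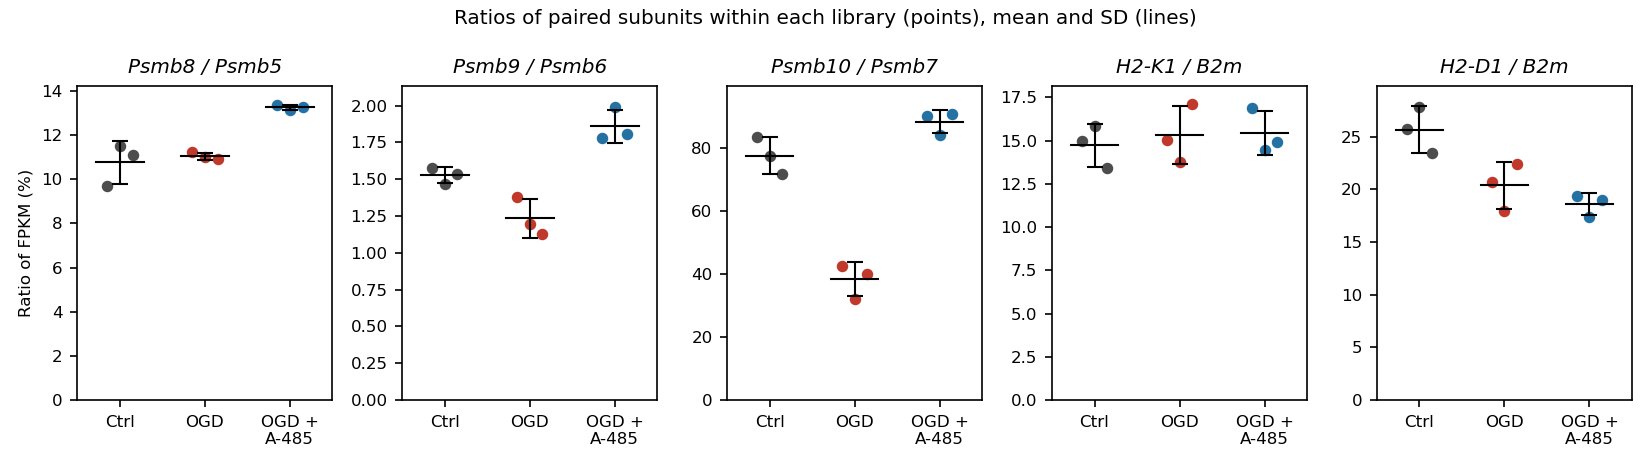
Ratio of the FPKM of 2 genes within each library, in percent, for Psmb8 to Psmb5, Psmb9 to Psmb6, Psmb10 to Psmb7, H2-K1 to B2m and H2-D1 to B2m, each panel with its own axis from 0; points are the 3 libraries of a group, the long line is the mean and the short lines mark 1 SD. Psmb10 to Psmb7 was 38.4% on average under OGD and 77.7% and 88.5% in the groups on either side, while H2-K1 to B2m lay between 13.4% and 17.1% in the 9 libraries.

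Nlrc5 (ENSMUSG00000074151, chr8:94434356-94527272, plus strand), the class I transactivator, was at 13.4, 15.4 and 14.6 FPKM in control, 12.02, 13.1 and 14.3 FPKM under OGD, and 11.1, 10.2 and 9.82 FPKM with A-485. Control and OGD overlapped, and the OGD + A-485 libraries were the lowest 3 of the 9. Its log2 fold changes were -0.14 under OGD (limma adjusted p = 0.205), -0.34 for A-485 against OGD (SE 0.08, limma adjusted p = 0.00720) and -0.48 for A-485 against control (SE 0.08, limma adjusted p = 8.70e-04), and 0 of the 3 passed the fold threshold in limma or limma-voom. The last one did pass when the first control or the first OGD + A-485 library was left out, with -0.53 as its lowest value over the libraries left out in turn. In the same OGD + A-485 libraries, 5 of the other members were called higher than under OGD, where 12.2% of all genes tested were. Whether the level of Nlrc5 has a part in this was not tested.

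Of 12 partners of Nlrc5 on class I promoters and related cofactors, 11 were tested. In OGD against control 0 were called higher and 1 lower, which was Nfyc, a subunit of the factor that binds the CCAAT box (log2 fold change -0.62, limma adjusted p = 3.56e-05). In OGD + A-485 against OGD 0 were called higher and 2 lower, and at an unadjusted p under 0.05 the list had 6 higher and 3 lower, with 0 called higher by limma-voom too. Rfx5, a subunit of the RFX complex that binds the X box of class I and class II promoters, was at 4.14, 4.35 and 4.21 FPKM in control, 4.36, 5.11 and 4.79 FPKM under OGD, and 2.10, 2.05 and 1.70 FPKM with A-485. The OGD + A-485 libraries were far below the other 6, and Rfx5 fell by 1.24 on the log2 scale against OGD (SE 0.10, limma adjusted p = 1.07e-05). Rfxank, which encodes another RFX subunit and was the second gene called lower, had mean levels of 2.37, 2.42 and 1.66 FPKM (log2 fold change -0.54 against OGD, limma adjusted p = 0.00835), and lost its call without OGD library 1 (-0.52) and without OGD + A-485 library 2 (-0.49) or 3 (-0.44). The call of Rfxank was also lost with a pseudocount of 1 (-0.37), under quantile normalization (-0.48) and in the fit of only the 2 groups compared.

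The genes of the enzymes that A-485 blocks are in the same list. Ep300, which encodes P300, had mean levels of 14.1 FPKM in control, 12.8 under OGD and 14.6 with A-485, and Crebbp, which encodes CBP, 5.45, 4.99 and 6.60 FPKM. Both were called in 0 comparisons by limma and limma-voom. The log2 fold change against OGD was 0.18 for Ep300 (limma adjusted p = 0.0377) and 0.40 for Crebbp (limma adjusted p = 0.00132). The inhibitor acts on the enzymes, so these RNA levels are no check of its action. Ciita, the class II counterpart of Nlrc5, had 0 to 4 reads per library and was not tested.

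**Figure D3:**
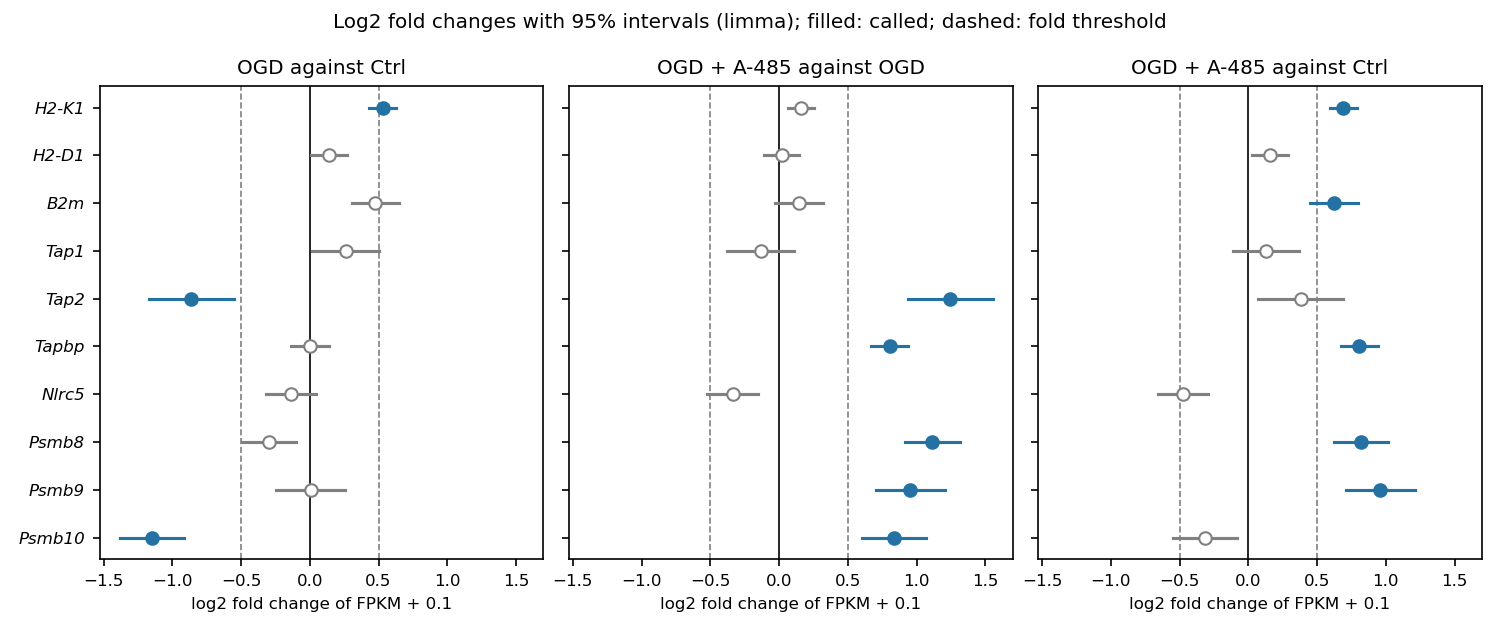
Log2 fold changes of FPKM + 0.1 from limma for the 10 members in the 3 comparisons, with 95% intervals; filled points were called at p under 0.01 and a log2 fold change above 0.5 in size, and dashed lines mark that fold. In OGD + A-485 against OGD the filled points were Tap2, Tapbp, Psmb8, Psmb9 and Psmb10, from 0.81 to 1.24, and in OGD against control H2-K1 lay at 0.53, a call lost when libraries were scaled to total reads or quantile normalized.

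In the genome 7 of the 10 members lie on chromosome 17. Psmb9, Tap1, Psmb8 and Tap2 follow each other in the class II region of the MHC, with 495 bases between the gene models of Tap1 and Psmb8 and 2072 between Psmb8 and Tap2, and Tapbp, H2-K1 and H2-D1 lie further away on the same chromosome. Nlrc5 and Psmb10 are on chromosome 8 and B2m is on chromosome 2. The annotated starts of Tap1 and Psmb9 in RefSeq are 225 bases apart on opposite strands, so their promoter windows overlap and hold 1 and the same copy of TGACG. The stretch that carries it is shown on the strand of Tap1, at chr17:34187458-34187487, with the match in capitals:
Tap1: cccagagacaggTGACGacagagggtcctg

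Exons of Tap1 and Psmb9 share 212 bases on opposite strands, which is 3.87% of the Tap1 model and 5.79% of the Psmb9 model, and whether strand was used in counting is not given in the sources used here, so reads from these bases cannot be told apart. The shares in this paragraph are of the merged exons in the GENCODE M21 annotation. These are longer than the deposited lengths for Tapbp (3628 against 3296 bases) and Psmb8 (3381 against 2736 bases). Other genes also overlap exons of called members. On the opposite strand, Gm19412 shares 904 bases with Tapbp (24.9% of the model) and was listed at 0 FPKM, Gm15821 shares 533 bases with Tap2 (14.1%) at a mean of 0.0675 FPKM, and Gm20496 shares 498 bases with Psmb8 (14.7%) and 165 with Tap2 (4.36%) at a mean of 0.142 FPKM. Zbtb22, on the same strand as Tapbp, shares 149 bases with it (4.11%) at a mean of 8.40 FPKM. The median log2 fold change of the 50 nearest expressed genes around each member was between -0.14 (H2-D1) and 0.10 (Tapbp and Nlrc5) for A-485 against OGD, and the 5 calls with A-485 remained when it was removed.

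Beyond H2-K1 and H2-D1, 23 of 26 listed class I heavy chains were in the table and 9 were tested, the rest being below 0.2 FPKM. Under OGD 4 were called higher, namely H2-Q4, H2-M3, Mr1 and Fcgrt, and 2 lower, namely H2-T24 and Hfe, with a median log2 fold change of 0.28. Of these, H2-M3 lost its call without the second control (0.49) or the second OGD library (0.48), and Hfe without the first control (-0.53, where p no longer passed). Scaling to total reads also ended the call of H2-M3 (0.49), and a pseudocount of 1 that of Hfe (-0.36). With A-485 against OGD 2 were called higher and 1 lower, with a median of 0.04. Mr1, which presents vitamin metabolites to MAIT cells, was at 2.94, 2.89 and 2.71 FPKM in control, 4.56, 5.21 and 4.26 FPKM under OGD, and 3.49, 3.96 and 3.42 FPKM with A-485, and rose under OGD by 0.69 on the log2 scale (limma adjusted p = 3.67e-04). H2-T24 fell under OGD by 0.77 (limma adjusted p = 0.00137).

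H2-Q4, a nonclassical heavy chain of the Qa region, changed in both directions. It was at 6.31, 6.41 and 6.85 FPKM in control, 9.26, 10.3 and 11.3 FPKM under OGD, and 3.01, 3.29 and 3.39 FPKM with A-485, without overlap between the groups. It rose under OGD by 0.64 on the log2 scale (limma adjusted p = 2.47e-04) and fell with A-485 against OGD by 1.63 (SE 0.08, limma adjusted p = 8.55e-07), although 21.8% of the 50-base windows of its transcripts also occur in other genes. Cd1d1, which presents lipids to NKT cells, had mean levels of 0.667, 0.392 and 2.27 FPKM and rose with A-485 against OGD by 2.28 on the log2 scale (limma adjusted p = 4.10e-05), from 10 to 18 reads per OGD library to 74 to 102 with A-485. Cd1d1 shares 19.1% of its windows with Cd1d2.

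The 7 tested H2 heavy chains summed to 332 FPKM in control, 405 under OGD and 411 with A-485. H2-K1 made up 29.9% ± 0.217 of the sum in control, 35.4% ± 0.413 under OGD and 38.9% ± 1.10 with A-485 (SD, n = 3 each), and H2-D1 52.0% ± 0.567, 47.0% ± 1.07 and 46.9% ± 1.24. H2-Q4 took 1.97%, 2.54% and 0.786%, and H2-T23, which encodes Qa-1, 7.95%, 7.92% and 5.79%. The 2 classical chains together held 81.9%, 82.4% and 85.8% of the sum. The order of H2-D1 above H2-K1 was the same in the 3 groups.

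Of 22 genes of peptide loading and trimming, 0 were called higher and 3 lower under OGD, and 7 were called higher and 0 lower with A-485 against OGD. At an unadjusted p under 0.05 those were 4 higher and 12 lower under OGD, and 13 higher and 4 lower with A-485, and limma-voom also called 0 in the 2 empty directions. The list had a median log2 fold change of -0.19 under OGD and 0.25 with A-485 against OGD, beside 0.01 over all genes in both. Calr, the calreticulin that holds new heavy chains in the loading complex, was at 197, 205 and 207 FPKM in control, 135, 119 and 126 FPKM under OGD, and 261, 253 and 249.7 FPKM with A-485. It fell under OGD by 0.68 on the log2 scale (limma adjusted p = 1.15e-05) and rose 2.01-fold with A-485 against OGD (limma adjusted p = 8.55e-07), in the same order of groups as Tap2. Sec61a1, the pore of the translocon, rose by 0.60 with A-485 against OGD (limma adjusted p = 1.32e-05), and the protease Ide fell under OGD by 0.54 and with A-485 against control by 0.84 (limma adjusted p = 1.38e-05 and 4.01e-07). Calr and Sec61a1 also serve the folding and import of proteins outside the class I pathway. The calls of Sec61a1 were lost under quantile normalization against OGD (0.47) and under scaling to total reads against control (0.47). Among the 7 called higher against OGD, Canx (0.53) lost its call under quantile normalization (0.38), scaling to total reads (0.46) and removal of neighbouring genes (0.46). Erap1 (0.51) lost its call with a pseudocount of 1 (0.46) and under scaling to total reads (0.45). It was also lost without the third OGD (0.49) or the second OGD + A-485 library (0.48). The call of Ide in OGD against control was lost with the median of neighbouring genes removed (-0.48).

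Psme1 and Psme2 encode PA28α and PA28β, the activator ring that works with the immunoproteasome, and 2 of 4 genes of the PA28 list were called higher with A-485 against OGD and 1 lower. Psme2 was at 14.6, 8.87 and 11.8 FPKM in control, 8.95, 11.6 and 11.6 FPKM under OGD, and 32.9, 35.8 and 44.0 FPKM with A-485. Control and OGD overlapped and the OGD + A-485 libraries stood well above both. It rose 3.48-fold against OGD (log2 fold change 1.80, SE 0.19, limma adjusted p = 5.78e-05), and Psme1 rose from a mean of 32.0 to 51.8 FPKM (log2 fold change 0.69, limma adjusted p = 5.28e-06). With the median of 0.50 of its neighbouring genes removed, Psme1 was at 0.20 and no longer called, and Psme2 was at 1.34 and still called. Psme4, which encodes the separate activator PA200, fell by 0.51 (limma adjusted p = 1.13e-04), a call lost without the second OGD library (-0.47) or the first OGD + A-485 library (-0.48), and Psme3 fell under OGD by 0.63 (limma adjusted p = 4.92e-06). The call of Psme4 was also lost with neighbouring genes removed (-0.38) and with a pseudocount of 1 (-0.48).

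The structural subunits of the proteasome gave other counts. Of 16 other 20S core and assembly genes, 0 were called with A-485 against OGD in either direction by limma and by limma-voom, with 7 higher and 3 lower at an unadjusted p under 0.05, and 0 were called higher and 2 lower under OGD, namely Psmb3 and the assembly chaperone Psmg3 (log2 fold change -0.68 and -0.79, limma adjusted p = 1.09e-04 and 1.31e-04). Of 18 subunits of the 19S regulatory particle, 0 were called with A-485 against OGD by both tools, with 4 higher and 5 lower at an unadjusted p under 0.05. Under OGD 1 was called higher, Psmd8 (log2 fold change 0.58, limma adjusted p = 7.90e-06), and 5 lower, with Psmd7 moving most (log2 fold change -0.69, limma adjusted p = 7.15e-05), and Psmc4 fell most with A-485 against control (log2 fold change -0.64, limma adjusted p = 9.04e-06). The median log2 fold change with A-485 against OGD was 0.13 for the 20S list and -0.03 for the 19S list, while the 3 immunoproteasome subunits lay between 0.84 and 1.12. The 3 constitutive catalytic subunits had a median of 0.40. Of these, Psmb5 was at 0.86, inside the range of the immunoproteasome subunits, and Psmb7 was lower but not called.

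Of 20 genes of interferon signalling, 18 were tested. Under OGD 1 was called higher, the kinase Tyk2 (log2 fold change 0.69, limma adjusted p = 1.44e-04), and 2 lower, among them Usp18, a brake on the type I receptor (log2 fold change -0.87, limma adjusted p = 0.00243). With A-485 against OGD 8 were called higher, among them Irf1, Socs3 and the receptor genes Ifnar1 and Ifngr1, and 1 lower, Stat2. Socs3 lost this call with the median of neighbouring genes removed (0.42). Irf1, a transcription factor of class I genes and of Psmb9, was at 2.84, 3.25 and 3.87 FPKM in control, 3.56, 2.59 and 3.34 FPKM under OGD, and 5.90, 5.68 and 5.49 FPKM with A-485, where the libraries lay above the other 6 (log2 fold change 0.84 against OGD, SE 0.14, limma adjusted p = 9.31e-04). Stat2 fell by 0.80 against OGD (limma adjusted p = 2.17e-05), Socs3 rose by 0.93 against control (limma adjusted p = 6.02e-06), and Ifnb1, which encodes interferon beta, had 0 to 2 reads per library and was not tested.

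Of 8 NF-kB genes, 3 were called higher and 0 lower under OGD, where limma-voom also called 0 lower and 0 were lower at an unadjusted p under 0.05, and 1 was called higher and 3 lower with A-485 against OGD. Tnfaip3, an inhibitor of NF-kB signalling that NF-kB itself induces, had mean levels of 2.50, 10.05 and 14.8 FPKM and rose under OGD by 1.97 on the log2 scale (limma adjusted p = 2.39e-07) and again with A-485 by 0.55 (limma adjusted p = 7.15e-05, a call lost under scaling to total reads at 0.49 and with the median of neighbouring genes removed at 0.43). Nfkb2, which encodes the precursor of p52, had mean levels of 22.7, 30.1 and 16.5 FPKM and fell with A-485 against OGD by 0.86 (limma adjusted p = 5.72e-06). The call of Nfkbia against OGD (-0.502) was lost with a pseudocount of 1 (-0.498) and with neighbouring genes removed (-0.466). It was also lost without the first OGD (-0.480) or the first OGD + A-485 library (-0.479). That of Relb (-0.54) was lost with a pseudocount of 1 (-0.47) or without the second OGD + A-485 library (-0.46). The call of Relb under OGD (0.56) was lost with a pseudocount of 1 (0.49) or neighbouring genes removed (0.46).

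**Figure D4:**
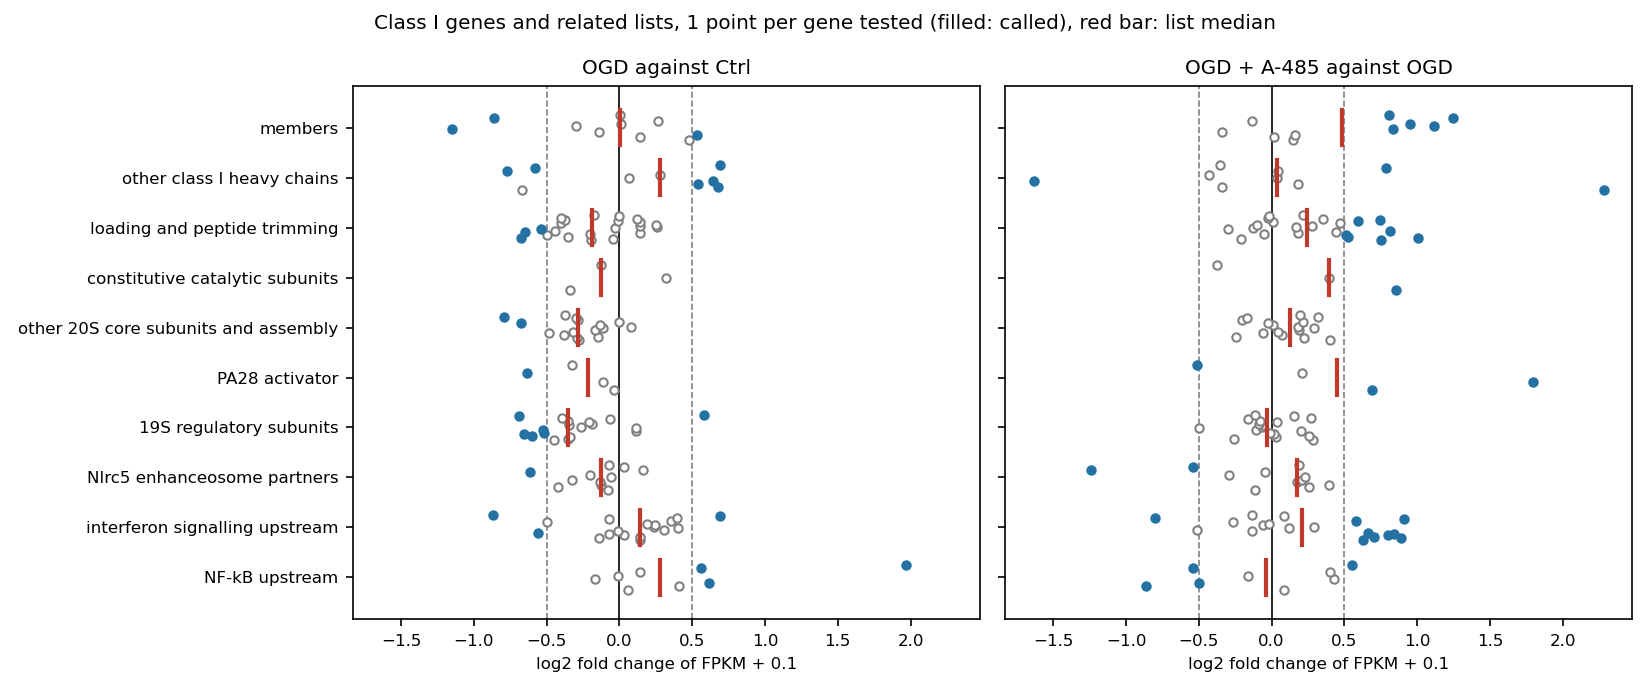
Log2 fold changes of FPKM + 0.1 from limma for the members and for 9 lists of related genes, in OGD against control and in OGD + A-485 against OGD; each point is a gene, filled if called, the red bar is the median of the list and dashed lines mark the fold threshold. The median of the members moved from 0.00 to 0.48 between the panels and that of the loading and trimming genes from -0.19 to 0.25, while that of the 19S list was below 0 in both, at -0.35 and -0.03.

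Ordered by level, the members kept B2m, H2-D1 and H2-K1 at the top of each group, without overlap between neighbours. In control Psmb10 came next, then Tapbp, then Psmb8 and Nlrc5, which overlapped, then Tap1, Tap2 and Psmb9. Under OGD Tapbp moved above Psmb10, which overlapped Nlrc5, Nlrc5 overlapped Psmb8, and Tap2 at a mean of 2.17 FPKM overlapped Psmb9 at 1.86 FPKM at the bottom. With A-485 Tapbp at 41.9 FPKM was followed by Psmb10 at 26.5 and Psmb8 at 25.9 FPKM, which overlapped, and then by Nlrc5, Tap1, Tap2 and Psmb9, each apart from the next.

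For each member, the gene with the most similar profile was taken as the one with the smallest root mean square difference in log2(FPKM + 0.1) over the 9 libraries, each profile centred on its own mean, among the 5262 genes that averaged 10 FPKM or more, or 1 FPKM or more for Nlrc5 (11888 genes). The nearest was Wwp2 for H2-K1 (difference 0.0286 in log2), Dap3 for H2-D1 (0.0430), Rest for B2m (0.0494) and Mark4 for Tap1 (0.0778). For Tapbp it was Arpc4 (0.0544), for Nlrc5 Med12 (0.0487), for Psmb8 Phf23 (0.0508), for Psmb9 Emp3 (0.0884) and for Psmb10 Ppp1r10 (0.0914). Tap2 had the least similar nearest gene, Apex1 (0.155). These differences include the spread between libraries, and Tap2 had the largest SE of the members. Tap1, Tap2 and Psmb9 also averaged below the 10 FPKM asked of their candidates.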

How the data were processed

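RNA of BV2 cells was sequenced in 9 libraries, 3 each for control, OGD and OGD + A-485, grouped by the sample labels. According to the methods of the study, featureCounts was run on the filtered reads, and the authors deposited FPKM made from read count and gene length, with the deposited gene lengths in bases beside them. The submitters' processing notes name GRCm38 and mm10, and 98.3% of the genes found in GENCODE M21 had the same coordinates. Of the members, H2-K1, Tapbp and Psmb9 had other coordinates there. The deposited lengths of H2-K1, Tapbp, Psmb8 and Psmb9 differed from the merged exons of GENCODE M21. The aligner and the use of strand are not given in the sources used here.

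Multiplied by length and by 1 divisor per library, 100% of the FPKM were whole reads (tolerance 0.001), totalling 12593250 to 16091038 reads. The divisor was above the total reads in each control and OGD library and below it in each OGD + A-485 library. It was 1.34e+07 for 12681228 reads in the first control library and 1.46e+07 for 15208237 reads in the first OGD + A-485 library. How the divisors were set is not given in the sources used here. The main test was limma (version 3.58.1, R 4.3.3) on log2(FPKM + 0.1) for 16123 genes averaging 0.2 FPKM or more, over the 9 libraries at once, with group means and a prior variance that followed the mean. Genes were called at p under 0.01 and a log2 fold change above 0.5 in size, as in the study, and p-values were adjusted by Benjamini-Hochberg over all genes tested. Ratios within libraries were compared by exact permutation tests (smallest p 0.1). The fit was tested on simulated data. Other steps used scipy 1.17.1, pandas 2.3.3, numpy 2.4.6 and matplotlib 3.10.9 under Python 3.11.15.

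The members, gene lists and tests were chosen with earlier results of these data known, so no list was tested as a set. Named are the members, Psmb5, Psmb6, Psmb7, Ep300, Crebbp, Irf1, Ifnb1 and Rfx5, and of each list the called gene with the largest rise and fall in each comparison if it averaged 1 FPKM or more, except 1 gene that is not reported here. Rfxank, Psme1, Ciita, H2-T23, H2-M3, Fcgrt, Hfe and the other genes given by name were named after their values were seen. Alternatives were other pseudocounts (1 and 0.01), a filter at 1 FPKM, no filter, rescaling by median of ratios, quantile normalization, scaling to total reads, fits of 2 groups, a replicate block, no trend, limma-voom on the whole reads, calls at an adjusted p under 0.05, subtraction of the median change of 50 neighbours, and fits without each library.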

Additional observations from a re-analysis of the deposited data

How the results depend on the processing

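The 5 members called higher in OGD + A-485 against OGD, and the calls of Tap2 and Psmb10 in OGD against control, remained under each of 22 alternatives. Of the recomputed fold changes of members, 626 kept direction and side of the thresholds, 15 passed them only in the alternative, 3 lost them and 16 changed sign. In OGD against control, the count of members called higher (1) became 0 under quantile normalization and under scaling to total reads, 2 with an adjusted p under 0.05 and 2 with neighbouring genes removed, and was 1 to 2 with libraries left out. In OGD + A-485 against OGD, the count called lower (0) became 1 with an adjusted p under 0.05 (Nlrc5). In OGD + A-485 against control, the count called lower (0) became 1 under scaling to total reads, 2 with an adjusted p under 0.05 and 1 with neighbouring genes removed, and was 0 to 1 with libraries left out. With an adjusted p under 0.05 the genes called higher and lower over all genes were 3624 and 3676 (OGD against control), 4053 and 3983 (A-485 added, against OGD) and 4553 and 4577 (A-485 added, against control), because no fold threshold applies there. Scaling to total reads moved the split in these 3 comparisons from 1803 and 1581 to 1588 and 1867, from 1974 and 2165 to 1694 and 2475, and from 2747 and 2684 to 2253 and 3349. Small differences changed sign: H2-D1 was -0.0499 (OGD against control), -0.0996 (A-485 added, against OGD) and -0.149 (A-485 added, against control) under quantile normalization, -0.0477 under scaling to total reads in OGD + A-485 against OGD, and there -0.0288 to 0.0509 with libraries left out. In OGD against control, Tapbp was -0.0479 under scaling to total reads and -0.0561 to 0.0400 with libraries left out, and Psmb9 was -0.110 under quantile normalization, -0.0399 under scaling to total reads, -0.00247 with neighbouring genes removed and -0.103 to 0.0806 with libraries left out. With a pseudocount of 1, the log2 ratio of Psmb8 to Psmb5 in OGD + A-485 against OGD was 0.21, and that of Psmb9 to Psmb6 was 0.32 there and 0.0076 against control, since Psmb9 is near 2 FPKM. Rescaling by median of ratios hardly changes the deposited values, so it is no check. Other causes were not tested.

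Same-numbered libraries had a mean correlation of deviations of -0.0302 (-0.125 to 0.0725 over 9 pairs), and 2 of 9 libraries were closest to their own number, so the numbers were not treated as pairs. With the replicate block, 1740 and 1548 genes were called higher and lower in OGD against control, 1937 and 2109 with A-485 against OGD and 2691 and 2626 with A-485 against control, and the calls of the members were the same. Depth differed between the groups, and its part was not tested. Tap2 (91 to 321 reads per library) had the largest SE of the members, 0.14, and Psmb9 (79 to 221 reads) had 0.11, as did Tap1 (557 to 707 reads).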
